A study of Mus musculus with 12 samples.

Results

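The 10 genes described here are neutrophil markers, namely Csf3r, Retnlg, Ly6g, Trem1, Trem3, Hcar2, Slfn4, Mcemp1, Cd177 and Lcn2. They were chosen by name, and all 10 were found among the 36400 genes of the deposited skin table. RNA sequencing covered 12 skin libraries in 4 groups of 3, from female BALB/c mice that were 6 weeks old at the start, with collection on day 30. Solvent mice received only the acetone and olive oil vehicle, mixed 3 to 1. DNCB mice were sensitized with 1% dinitrochlorobenzene in that vehicle and challenged with 0.5%, which is a hapten-driven model that resembles atopic dermatitis in its symptoms. The scMSC mice had the same DNCB course plus 4 injections, from day 13 to day 25, of 2000000 human umbilical cord mesenchymal stem cells (MSCs) in 100 µL under the skin. The scivMSC mice had the same number of cells at the same times, with 50 µL given subcutaneously and a further 50 µL through a tail vein. Comparing the groups asks how far the hapten raised these genes and whether skin given MSCs by either route held the level of DNCB skin or of Solvent skin.

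Neutrophils are short-lived granulocytes that leave the bone marrow under granulocyte colony-stimulating factor and enter inflamed tissue along gradients of chemokines and lipid mediators. Resting skin holds few of them, whereas contact with a hapten or microbes brings them into the dermis and epidermis. Their azurophil granule proteins are transcribed early in marrow precursors, the specific and gelatinase granule proteins later, and the receptors, cytosolic calcium-binding proteins and inflammatory mediators in mature cells.

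Levels are given as deposited FPKM (fragments mapped to a gene, scaled by its transcript length and the depth of the library), and tests used the deposited estimated counts, of which about 4 stood for 1 fragment. Each library held 63877153 to 75134001 estimated counts. A gene was taken as not detected in a group where every library held at most 12 estimated counts, which is about 3 fragments; this floor covers counting error only. A gene was called where the adjusted p was under 0.05 and the absolute log2 fold change was over 1. Libraries are named by group and replicate number, as in DNCB1. Keratinocyte keratins, the defining genes of epidermis, were present in each library of this skin, with summed FPKM over 7 of them of 4574, 6747 and 9852 in Solvent1 to Solvent3, and with Krt10 or Krt14 as the most abundant of them in each of the 12 libraries.

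Each of the 10 neutrophil genes stood higher in DNCB skin than in any other skin, and skin given MSCs lay near Solvent skin. Summed over the 10 genes, the level was 359, 318 and 241 FPKM in DNCB1 to DNCB3, against 27.9, 20.2 and 37.2 in Solvent, 24.7, 18.2 and 12.3 in scMSC and 21.7, 39.3 and 25.6 in scivMSC. The lowest DNCB library thus lay well above the highest of the 9 others, scivMSC2, and the 3 other groups overlapped. As group means with SD (n = 3), the sum was 306 ± 60.3 in DNCB, 28.4 ± 8.5 in Solvent, 18.4 ± 6.18 in scMSC and 28.9 ± 9.24 in scivMSC. Set against DNCB, these are 9.29% in Solvent, 6.01% in scMSC and 9.43% in scivMSC. In bulk skin, fewer cells of a type and less RNA per cell cannot be told apart.

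For each of the 10 genes, all 3 DNCB libraries lay above all 9 others, an order that 9.44% of the 21890 genes tested also had. Against Solvent, 10 of 10 were called higher in DNCB, beside 6.59% of all genes tested. Against scMSC the count was 10 of 10 beside 3.84%, and against scivMSC 9 of 10 beside 2.33%, with Trem1 as the gene not called. The 9 genes called in all 3 comparisons stood beside 1.55% of all genes. The median log2 fold change over the 10, with fits against undetected groups replaced by their lower bounds, was 4.18 over Solvent, 4.80 over scMSC and 4.63 over scivMSC. As fitted, these medians were 4.54, 5.24 and 4.97, and the medians of all genes tested were 0.02, -0.02 and -0.02.

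These comparisons share the DNCB libraries, so they are given side by side and not as separate evidence. Each of the genes also stood in the study's own list of genes higher in DNCB than in both MSC groups, which was selected on these same skin samples together with blood samples, so the counts are not independent evidence. The 10 passed the filter of a mean of at least 0.1 FPKM, but Ly6g and Cd177 would have been under it without the DNCB libraries, and the counts therefore serve only as description. They also leaned on individual libraries: the count against Solvent was 6 without Solvent1, and the count against scMSC was 6 without scMSC2. Against scivMSC it was 4 without DNCB1, DNCB2, scivMSC1 or scivMSC3 and 5 without DNCB3. Csf3r, Hcar2 and Lcn2 kept their calls in all 3 comparisons whichever of the 12 libraries was left out. With the replicate number added to the fit as a block, the call of Trem1 over scMSC was lost (adjusted p = 0.0611), and so were those of Ly6g (0.0577), Trem3 (0.0778), Slfn4 (0.079) and Cd177 (0.0881) over scivMSC.

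**Figure D1:**
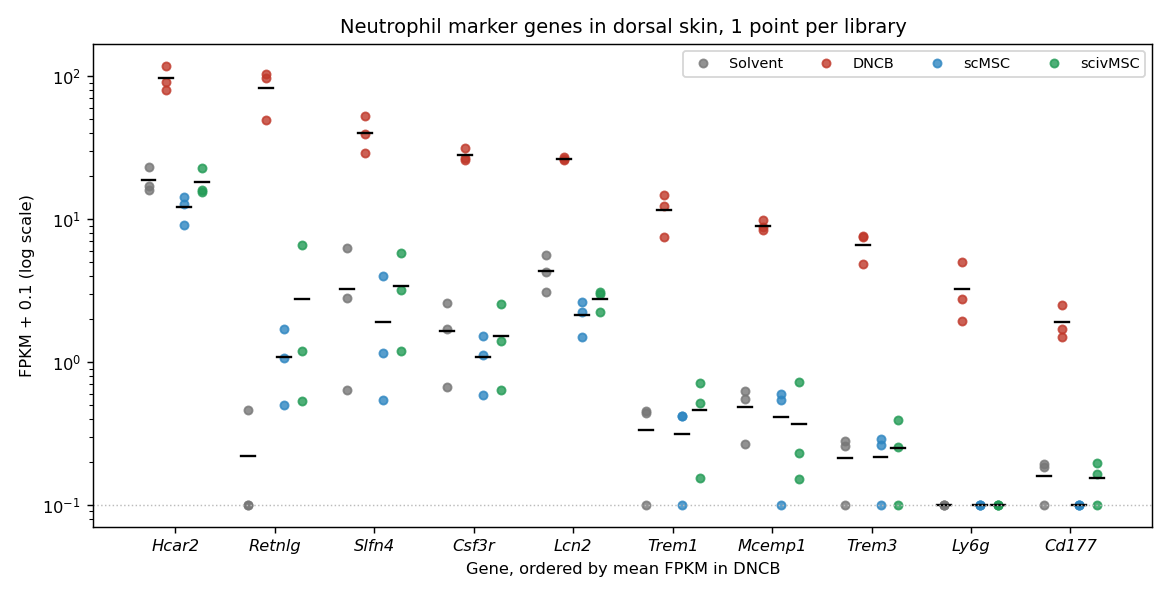
FPKM plus 0.1 on a log axis for the 10 neutrophil genes, with a point for each of the 12 libraries, black lines at the group means and genes ordered by their DNCB mean. All 3 DNCB points of each gene sit above the 9 other points.

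Among the receptors, Csf3r binds granulocyte colony-stimulating factor, the growth factor that drives neutrophil production (ENSMUSG00000028859, chr4:126024550-126044440, plus strand of GRCm38, as are the positions that follow). Its level was 26.7, 25.8 and 31.5 FPKM in DNCB1 to DNCB3 and 1.59, 0.566 and 2.47 in Solvent1 to Solvent3. Skin of scMSC mice held 1.42, 1.02 and 0.492, and skin of scivMSC mice 1.31, 2.44 and 0.541. The lowest DNCB library was 10.4 times the highest other, Solvent3, while the 3 remaining groups overlapped. Csf3r was 16.2-fold above Solvent (log2 fold change 4.02 ± 0.62 SE, adjusted p = 0.00153), with all 3 DNCB libraries above all 3 Solvent libraries. It was 28.1-fold above scMSC (log2 fold change 4.81 ± 0.65 SE, adjusted p = 0.0022) and 19.7-fold above scivMSC (log2 fold change 4.30 ± 0.63 SE, adjusted p = 0.00533). Without scivMSC2, the highest of its group, the latter log2 value was 4.90.

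Trem1 and Trem3 encode activating receptors of myeloid cells, whose signal runs through the adaptor Tyrobp and raises the output of inflammatory mediators. They are neighbours on chromosome 17, on the same strand, with 852 bases and no other gene between them (Trem1, ENSMUSG00000042265, chr17:48232768-48246924, plus strand, and Trem3, ENSMUSG00000041754, chr17:48247777-48258841, plus strand). Trem1 reached 12.3, 14.7 and 7.38 FPKM in the DNCB libraries, against 0.356, 0 and 0.34 in Solvent, 0.321, 0.316 and 0 in scMSC and 0.0541, 0.615 and 0.419 in scivMSC. Trem3 ran in parallel at 7.39, 7.47 and 4.75 FPKM in DNCB, 0.18, 0 and 0.158 in Solvent, 0.161, 0.188 and 0 in scMSC and 0, 0.292 and 0.153 in scivMSC. Both were at 0 in Solvent2 and scMSC3, both were highest outside DNCB in scivMSC2, and both were lowest within DNCB in DNCB3; outside DNCB the groups overlapped. Tyrobp itself stood at 71.7 ± 5.89 FPKM in DNCB and 20.8 ± 14.1 in Solvent (mean ± SD, n = 3), with 15.3 ± 5.41 in scMSC and 14.6 ± 9.8 in scivMSC. It was not called over Solvent (log2 1.63 ± 0.56 SE, adjusted p = 0.0555), except without Solvent3 (0.0246) or scivMSC3 (0.0139). Tyrobp was called over scMSC (log2 2.21 ± 0.57 SE, adjusted p = 0.0287), a call lost without DNCB1 (0.0748), DNCB2 (0.0649), DNCB3 (0.0642), scMSC2 (0.103) or scMSC3 (0.0959), and over scivMSC (log2 2.32 ± 0.57 SE, adjusted p = 0.0333), lost without DNCB1 (0.0918), DNCB2 (0.0807), DNCB3 (0.0781), scivMSC1 (0.0968) or scivMSC3 (0.0539).

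Trem1 was 43.4-fold above Solvent (log2 fold change 5.44 ± 1.46 SE, adjusted p = 0.0195), and 52.3-fold above scMSC (log2 fold change 5.71 ± 1.47 SE, adjusted p = 0.0287). Against scivMSC it stood 31.1-fold higher (log2 fold change 4.96 ± 1.42 SE) with all 3 DNCB libraries above all 3 scivMSC libraries, but the adjusted p of 0.0573 missed the threshold. DESeq2 gave 0.0265 for this comparison, limma on log2(FPKM + 0.1) 0.00502, and edgeR 0.0123 on counts divided by 4, 0.046 with genes of at least 1 FPKM and 0.0239 with the 6 libraries fitted alone. With limma on log2(FPKM + 1) it was 6.06e-05, and it also passed without Solvent2 (0.0338) or scMSC3 (0.0299) (range over every setting tried 6.06e-05 to 0.154). The call for Trem1 over Solvent was lost without Solvent1 or Solvent3, where adjusted p was 0.053 and 0.0512 in that order (range over every setting tried 3.64e-05 to 0.053), and without Solvent2 the log2 fold change was 4.81. Over scMSC the Trem1 call was lost without DNCB1, DNCB2, DNCB3, scMSC1 or scMSC2, where adjusted p was 0.0688, 0.0752, 0.053, 0.0621 and 0.0766 in that order (range over every setting tried 3.7e-05 to 0.0766).

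Trem3 was 49.1-fold above Solvent (log2 fold change 5.62 ± 1.39 SE, adjusted p = 0.0133), 51.1-fold above scMSC (log2 fold change 5.68 ± 1.38 SE, adjusted p = 0.022) and 41.9-fold above scivMSC (log2 fold change 5.39 ± 1.36 SE, adjusted p = 0.0358). Outside DNCB its highest library held 24 estimated counts, about 6 fragments, so these fold changes rest on a few fragments in their denominators. Its log2 fold change over Solvent was 5.0 without Solvent2, over scMSC 6.27 without scMSC2, and over scivMSC 4.80 without scivMSC1 and 6.24 without scivMSC2. The Trem3 call over scMSC was lost without DNCB1, DNCB2, scMSC1 or scMSC2, where adjusted p was 0.0606, 0.0625, 0.053 and 0.0593 in that order (range over every setting tried 1.29e-05 to 0.0625). Over scivMSC it was lost without DNCB1, DNCB2, DNCB3, scivMSC1, scivMSC2 or scivMSC3, where adjusted p was 0.0951, 0.0978, 0.0743, 0.0858, 0.0502 and 0.107 in that order (range over every setting tried 2.01e-05 to 0.107).

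Hcar2 encodes the receptor for hydroxybutyrate and nicotinic acid, which neutrophils share with macrophages, adipocytes and epidermal cells (ENSMUSG00000045502, chr5:123863570-123865499, minus strand). It was the most abundant of the 10 genes in every library except DNCB2, where Retnlg led. DNCB skin held 118, 91.3 and 80.7 FPKM, Solvent skin 17, 16 and 23, scMSC skin 14.2, 12.7 and 9.03 and scivMSC skin 15.8, 22.8 and 15.4. All 3 DNCB libraries were above the others, and all 3 scMSC libraries were below all Solvent and all scivMSC libraries, which overlapped with each other. Hcar2 had the smallest rise of the 10 genes over Solvent, 4.59-fold (log2 fold change 2.20 ± 0.22 SE, adjusted p = 0.000471), from the highest Solvent level. It was 7.93-fold above scMSC (log2 fold change 2.99 ± 0.23 SE, adjusted p = 0.000241) and 5.36-fold above scivMSC (log2 fold change 2.42 ± 0.23 SE, adjusted p = 0.00118).

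Ly6g and Cd177 encode surface proteins of the Ly6 type, held in the membrane by a lipid anchor, and Ly6g is the antigen by which mouse neutrophils are usually sorted (Ly6g, ENSMUSG00000022582, chr15:75155240-75159126, plus strand, and Cd177, ENSMUSG00000052212, chr7:24743983-24760311, minus strand). Ly6g stood at 2.67, 4.93 and 1.83 FPKM in the DNCB libraries, or 190, 385 and 141 estimated counts, and at 0 in each of the 9 other libraries. The gene was therefore detected in DNCB skin and not detected in Solvent, scMSC or scivMSC skin, where a count of 0 allows up to 12 estimated counts. Against that floor in each library, Ly6g was at least 15.8-fold higher in DNCB than in Solvent, at least 19.8-fold higher than in scMSC and at least 19.4-fold higher than in scivMSC. Since the filter passed Ly6g only through the DNCB libraries, its adjusted p is given from the fit with no filter, 0.00214, 0.00364 and 0.00736 in that order. With the filter, DESeq2 did not call it, at adjusted p 0.0554, 0.0716 and 0.0822 in that order, where the ranges over every setting tried were 6.56e-05 to 0.0554, 8.72e-05 to 0.0716 and 0.000131 to 0.0822.

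Cd177 lay at 2.39, 1.6 and 1.39 FPKM in DNCB, 0.0923, 0 and 0.0827 in Solvent, 0, 0 and 0 in scMSC and 0.0978, 0.0631 and 0 in scivMSC. Outside DNCB its highest library, scivMSC1, held 23 estimated counts, and it was not detected in scMSC skin; the DNCB libraries lay above all of these, and the other groups overlapped at 0. It was at least 33.9-fold higher in DNCB than in scMSC against the floor of 12 estimated counts. It was 26.8-fold above Solvent (log2 fold change 4.74 ± 1.28 SE) and 32.8-fold above scivMSC (log2 fold change 5.03 ± 1.29 SE). The filter passed Cd177 only through the DNCB libraries too, and with no filter its adjusted p was 0.0287 over Solvent, 0.00546 over scMSC and 0.0531 over scivMSC, the last of which missed the threshold. Its calls with the filter serve only as description, and the one over Solvent was lost without Solvent1, Solvent3, DNCB1, DNCB2 or DNCB3, where adjusted p was 0.0632, 0.0639, 0.0736, 0.0563 and 0.0528 in that order (range over every setting tried 7.41e-05 to 0.0736), and its log2 value was 4.12 without Solvent2. The call over scivMSC was lost without Solvent1, Solvent3, DNCB1, DNCB2, DNCB3, scivMSC1, scivMSC2 or scivMSC3, where adjusted p was 0.0637, 0.0649, 0.132, 0.112, 0.10, 0.109, 0.0988 and 0.0822 in that order (range over every setting tried 0.000112 to 0.132). There the log2 value was 5.76 without scivMSC1, and the call was also lost with library size alone as the scale (0.0554).

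Mcemp1 encodes a C-type lectin-like membrane protein named for mast cells and also made by neutrophils and monocytes (ENSMUSG00000013974, chr8:3665754-3669259, plus strand). It was at 8.27, 9.74 and 8.68 FPKM in DNCB, the tightest DNCB group of the 10 genes after Lcn2, with a coefficient of variation of 8.49%. Solvent held 0.529, 0.168 and 0.448, scMSC 0.496, 0.438 and 0 and scivMSC 0.13, 0.623 and 0.0525, all below DNCB and overlapping with each other. Mcemp1 was 20.2-fold above Solvent (log2 fold change 4.34 ± 1.15 SE, adjusted p = 0.0187), 27.5-fold above scMSC (log2 fold change 4.78 ± 1.17 SE, adjusted p = 0.023) and 32.9-fold above scivMSC (log2 fold change 5.04 ± 1.19 SE, adjusted p = 0.0283). The call over Solvent was lost without Solvent1, Solvent2 or Solvent3, where adjusted p was 0.0534, 0.0683 and 0.0554 in that order (range over every setting tried 2.69e-05 to 0.0683). Over scMSC it was lost without DNCB1, DNCB2, DNCB3 or scMSC2, where adjusted p was 0.0537, 0.0601, 0.0529 and 0.0647 in that order (range over every setting tried 2.69e-05 to 0.0647). Over scivMSC it was lost without DNCB1, DNCB2, DNCB3, scivMSC1 or scivMSC3, where adjusted p was 0.0707, 0.0754, 0.0665, 0.108 and 0.0871 in that order (range over every setting tried 2.19e-05 to 0.108), and without scivMSC2 the log2 value was 6.53.

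Of the secreted products, Retnlg encodes resistin-like gamma, a small protein of the resistin family made in bone marrow and by circulating neutrophils (ENSMUSG00000022651, chr16:48872621-48874496, plus strand). It had the widest gap between DNCB and Solvent of the 9 genes detected in both, with 103, 96.5 and 49.2 FPKM in DNCB and 0, 0 and 0.36 in Solvent, where Solvent3 held only 15 estimated counts and the rest none. The scMSC libraries held 1.61, 0.397 and 0.959, and the scivMSC libraries 1.09, 6.49 and 0.436. Every MSC library was thus above every Solvent library and far below every DNCB library, with scivMSC2 the highest outside DNCB. Retnlg was 619-fold above Solvent (log2 fold change 9.27 ± 1.39 SE, adjusted p = 0.00134), and without Solvent1 or Solvent2 the log2 value was 8.67 or 8.66. Without Solvent3 the Solvent group is at 0, so no fold is given. It was 82.7-fold above scMSC (log2 fold change 6.37 ± 1.16 SE, adjusted p = 0.00605) and 31.5-fold above scivMSC (log2 fold change 4.98 ± 1.08 SE, adjusted p = 0.0214). The last of these calls was lost without DNCB1, DNCB2, scivMSC1 or scivMSC3, where adjusted p was 0.0668, 0.066, 0.0827 and 0.0533 in that order (range over every setting tried 0.00049 to 0.0827), and without scivMSC2 its log2 value was 6.73.

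Lcn2 encodes lipocalin 2, a protein of neutrophil specific granules that binds bacterial siderophores and withholds iron; inflamed keratinocytes make it too (ENSMUSG00000026822, chr2:32384633-32387797, minus strand). DNCB skin held 25.9, 26.9 and 26.2 FPKM, with the smallest coefficient of variation of the 10 genes in that group, 1.94%. Solvent skin held 5.48, 2.99 and 4.18, scMSC skin 2.53, 2.13 and 1.39 and scivMSC skin 2.14, 2.91 and 2.99. The groups fell in the order DNCB, Solvent and then the MSC groups, where only scMSC and scivMSC overlapped and Solvent2 and scivMSC3 were equal at 3 digits. Lcn2 was 5.48-fold above Solvent (log2 fold change 2.45 ± 0.27 SE, adjusted p = 0.000514), 12.8-fold above scMSC (log2 fold change 3.68 ± 0.28 SE, adjusted p = 0.000241) and 9.7-fold above scivMSC (log2 fold change 3.28 ± 0.28 SE, adjusted p = 0.000914).

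Inside the cell, Slfn4 belongs to the Schlafen family and is induced by interferons in myeloid cells (ENSMUSG00000000204, chr11:83175186-83190216, plus strand). Its level was 52.4, 39.3 and 29.1 FPKM in DNCB, 2.69, 0.54 and 6.17 in Solvent, 3.9, 1.06 and 0.438 in scMSC and 1.09, 3.08 and 5.67 in scivMSC. DNCB was above all the others, but Solvent and both MSC groups spread widely and overlapped, with Solvent3 at 6.17 and scMSC3 at 0.438. Slfn4 was 11.6-fold above Solvent (log2 fold change 3.54 ± 0.96 SE, adjusted p = 0.021), 22.3-fold above scMSC (log2 fold change 4.48 ± 1.01 SE, adjusted p = 0.0153) and 12-fold above scivMSC (log2 fold change 3.58 ± 0.96 SE, adjusted p = 0.0455). The highest library of each group carried much of its mean: the log2 value over Solvent was 4.38 without Solvent3, over scMSC 5.66 without scMSC1, and over scivMSC 4.29 without scivMSC3. The Slfn4 call over Solvent was lost without Solvent1, Solvent2 or DNCB1, where adjusted p was 0.076, 0.051 and 0.0548 in that order (range over every setting tried 0.000602 to 0.076), and over scMSC without scMSC2, where adjusted p was 0.0649 (range over every setting tried 1.36e-05 to 0.0649). Over scivMSC it was lost without Solvent1, DNCB1, DNCB2, DNCB3, scMSC2, scivMSC1, scivMSC2 or scivMSC3, where adjusted p was 0.0618, 0.114, 0.101, 0.0816, 0.0568, 0.14, 0.103 and 0.073 in that order (range over every setting tried 0.00106 to 0.14), and with library size alone as the scale (0.0507).

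**Figure D2:**
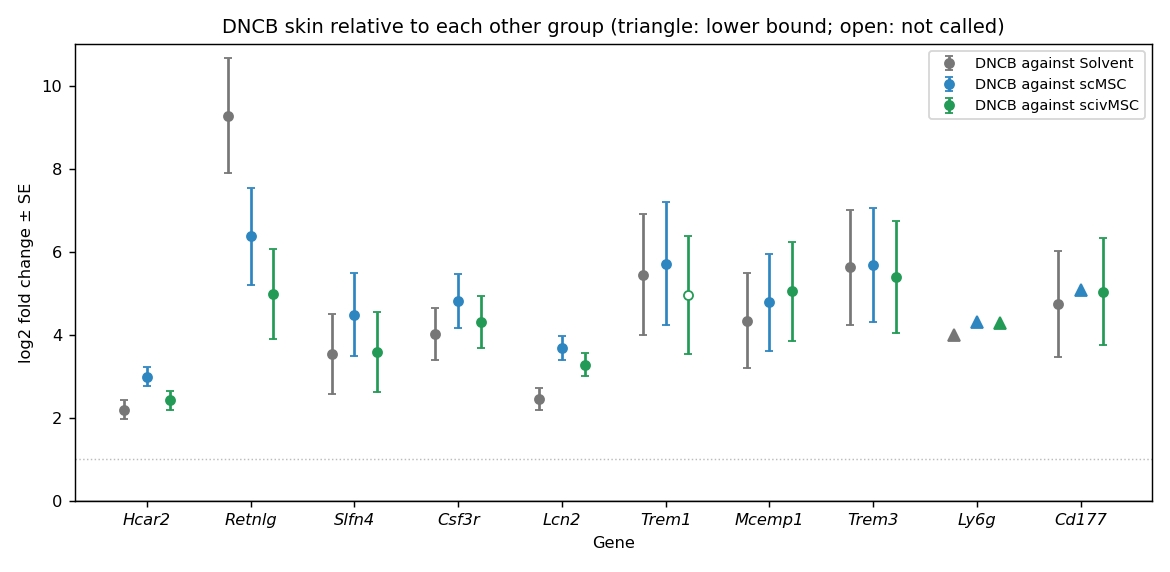
Log2 fold change of DNCB against each other group from the edgeR fit, with SE (n = 3 libraries a group), for the 10 neutrophil genes, with a dotted line at the fold threshold of 1. Triangles are lower bounds against groups where Ly6g or Cd177 was not detected, and the open point, Trem1 against scivMSC, was not called.

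By group mean, the order of levels in DNCB skin was Hcar2 at 96.7 ± 19.3 FPKM (SD, n = 3, as for the values that follow), Retnlg at 83 ± 29.5, Slfn4 at 40.3 ± 11.7, Csf3r at 28 ± 3.08 and Lcn2 at 26.3 ± 0.51. Below these came Trem1 at 11.5 ± 3.72, Mcemp1 at 8.9 ± 0.755, Trem3 at 6.54 ± 1.55, Ly6g at 3.15 ± 1.61 and Cd177 at 1.79 ± 0.527. Neighbours in that order overlapped in range except Lcn2 with Trem1 and Mcemp1 with Trem3. In Solvent skin Hcar2 led alone at 18.6 ± 3.8, followed by Lcn2 at 4.22 ± 1.24, Slfn4 at 3.13 ± 2.84 and Csf3r at 1.54 ± 0.954, with the remaining genes under 0.5 FPKM. The same gene led in scMSC at 12 ± 2.67 and in scivMSC at 18 ± 4.18, in neither overlapping with the next gene, Lcn2 in scMSC and Slfn4 in scivMSC. Retnlg took a different place by group, next to the top in DNCB and among the lowest in Solvent.

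Within DNCB skin, DNCB3 differed from its replicates gene by gene. Ly6g in DNCB3 was 48.1% of the mean of DNCB1 and DNCB2, Retnlg 49.2%, Trem1 54.7%, Slfn4 63.5%, Trem3 63.9%, Cd177 69.7% and Hcar2 77%. Mcemp1 and Lcn2 were nearly level with the replicates, at 96.4% and 99%, and Csf3r was above them, at 120.1%. DNCB3 also held the highest summed red blood cell level of the 12 libraries, and its part in the result was not tested. Outside DNCB, Solvent2 and scMSC3 each had 5 of the 10 genes at 0, more than any other library, and Solvent3 and scivMSC2 had only Ly6g at 0.

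Set against Solvent skin rather than DNCB skin, edgeR on all 12 libraries called only Lcn2, lower in scMSC, and only Retnlg, higher in scivMSC. Each gene lay on the same side of Solvent in the other MSC group too, without overlap, but was not called there. For scMSC against Solvent, 1 of 10 genes was called lower, beside 4.2% of all genes tested, so the share is not far from that of all genes. It was Lcn2, at 2.02 ± 0.577 FPKM in scMSC and 4.22 ± 1.24 in Solvent (SD, n = 3), a log2 fold change of -1.22 ± 0.26 SE with adjusted p = 0.00933. Hcar2 was at 12 ± 2.67 and 18.6 ± 3.8 FPKM, a log2 fold change of -0.79 ± 0.22 SE with adjusted p = 0.0289, and was not called, since that size is under the fold threshold. Its adjusted p was also over 0.05 with library size alone (0.0753), with limma at pseudocounts of 0.1 and 1 (0.0672 and 0.0712), with the 6 libraries fitted alone (0.0662) and without Solvent1 (0.0538), Solvent3 (0.0786) or scMSC3 (0.0893) (range over every setting tried 0.00535 to 0.0893). For both genes all 3 scMSC libraries lay below all 3 Solvent libraries, as for 11.7% of all genes tested. The Lcn2 call was lost with limma on log2(FPKM + 1), at a log2 fold change of -0.78, and with the 6 libraries fitted alone, at adjusted p 0.0613 (range over every setting tried 0.000114 to 0.0613). Cd177 was at 0 in scMSC and at most 19 estimated counts in Solvent. It passed the filter only through the DNCB libraries, and edgeR with no filter did not call it (adjusted p = 0.0634). With the filter, edgeR gave 0.0568, and DESeq2 called it lower (0.00163). So did edgeR without Solvent2 (0.027) or scivMSC3 (0.0273), over a range of 0.00163 to 0.685. With either library left out the count was therefore 2, but these calls of Cd177 serve only as description. The median log2 value was -0.61 over the 8 genes detected in both groups, beside 0.00 for all genes.

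For scivMSC against Solvent, 1 of 10 genes was called higher, beside 3.5% of all genes tested, again a share not far off. It was Retnlg, with 1.09, 6.49 and 0.436 FPKM in scivMSC against 0, 0 and 0.36 in Solvent, a log2 fold change of 4.30 ± 1.23 SE with adjusted p = 0.043. The groups did not overlap, but the Solvent level rested on the 15 estimated counts of Solvent3 and the scivMSC mean on scivMSC2. Leaving out scivMSC2 gave a log2 value of 2.54, and leaving out Solvent1 or Solvent2 gave 3.71 or 3.70. The call was lost without Solvent1, Solvent2, DNCB1, DNCB2, DNCB3, scMSC1, scMSC2, scMSC3, scivMSC1 or scivMSC2, where adjusted p was 0.136, 0.123, 0.0653, 0.0647, 0.0584, 0.0502, 0.0513, 0.0559, 0.0572 and 0.186 in that order (range over every setting tried 0.0139 to 0.186). It was also lost with limma on log2(FPKM + 1) (0.103), with the 6 libraries fitted alone (0.186) and with the replicate number as a block (0.12). In scMSC the log2 value of Retnlg over Solvent was 2.90 ± 1.25 SE, with adjusted p = 0.134, and without Solvent1 or Solvent2 it was 2.29 or 2.28; without Solvent3 the Solvent group is at 0 and no value is given. Lcn2 in scivMSC lay below Solvent in all 3 libraries, at a log2 fold change of -0.82 ± 0.26 SE with adjusted p = 0.0594, and it was called only without Solvent2 (log2 -1.05, adjusted p = 0.035, range over every setting tried 0.0126 to 0.187). Over the 9 genes detected in both groups the median log2 value was -0.23, beside 0.04 for all genes.

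Between the routes, the level of most of the 10 genes was lower in scMSC than in scivMSC skin as fitted, but no difference passed the test. In edgeR 0 of 10 genes were called between scMSC and scivMSC, beside 0.00457% of all genes tested, and DESeq2 and limma at either pseudocount also gave 0. At an unadjusted p under 0.05 there were 2, Cd177 and Hcar2. Hcar2 was the gene whose libraries did not overlap between the routes, at a log2 fold change of -0.56 ± 0.22 SE with adjusted p = 0.617. The median log2 value was -0.54 over the 8 genes detected in both, beside -0.01 for all genes. Whether the distance from DNCB differed between the routes is this same comparison, since both share the DNCB libraries.

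Ligands of neutrophil receptors were measured in the same libraries. Csf3, the growth factor that Csf3r binds, stood at 14, 6.4 and 7.53 FPKM in DNCB, 0.123, 0.144 and 0.0966 in Solvent, 0.189, 0.109 and 0 in scMSC and 0, 0.229 and 0.387 in scivMSC. DNCB lay above all the others for Csf3, which rose over Solvent (log2 5.99 ± 1.25 SE, adjusted p = 0.00589), over scMSC (log2 6.45 ± 1.27 SE, adjusted p = 0.00864) and over scivMSC (log2 5.45 ± 1.20 SE, adjusted p = 0.0224), and the calls over Solvent and scMSC held whichever library was left out. Over scivMSC, the Csf3 call was lost without DNCB1 (0.0739), DNCB2 (0.055) or DNCB3 (0.052) (range over the left-out libraries 0.0134 to 0.0739). Cxcl5, a ligand of Cxcr2, had 14.6, 6.26 and 24.7 FPKM in DNCB, was not detected in Solvent or scMSC, and was at least 149-fold higher than in Solvent. It passed the filter only through the DNCB libraries, so no p is given for it and the counts that include it serve only as description. Of the 9 growth factors, chemokines and interleukins searched, 7 could be tested, and 6 were called higher over Solvent, 6 over scMSC and 3 over scivMSC, with none lower, beside 6.59%, 3.84% and 2.33% of all genes tested called higher. The count over Solvent was 2 without Solvent3 and 3 without DNCB1, over scMSC 3 without DNCB1, DNCB2, scMSC1 or scMSC3 and over scivMSC 1 without DNCB1, DNCB2 or DNCB3. Counted in either direction, the calls over scivMSC were 5 by DESeq2 and 5 and 6 by limma at pseudocounts of 0.1 and 1. Their median log2 fold change was 5.99 over Solvent, 6.45 over scMSC and 4.89 over scivMSC, against medians near 0 for all genes. The chemokine Cxcl2 was the most abundant of them in each DNCB library, with a list sum of 344, 216 and 213 FPKM in DNCB and 6.84, 1.83 and 3.67 in Solvent, and Csf2 was not detected in any group.

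The receptors that guide neutrophils, which lie beside Csf3r on the same cells, gave 5 of 8 called higher over Solvent, 6 of 8 over scMSC and 5 of 8 over scivMSC, with none lower, beside 6.59%, 3.84% and 2.33% of all genes tested called higher. Cxcr2, the main receptor for these chemokines, was at 11, 10.3 and 12.7 FPKM in DNCB and 1.49, 2.14 and 2.2 in Solvent (log2 2.36 ± 0.20 SE, adjusted p = 0.00034). Fpr2, a formyl peptide receptor, was at 19.7, 18.7 and 13.6 in DNCB and 0.698, 0.369 and 0.451 in Solvent (log2 4.89 ± 0.82 SE, adjusted p = 0.00212). Cxcr1 resembled Ly6g in that it was not detected outside DNCB, where it stood at 1.33, 1.16 and 1.87 FPKM, and it was at least 11.5-fold higher than in Solvent. It passed the filter only through the DNCB libraries, so no p is given for it and the counts that include it serve only as description. Cxcr2 and Fpr2 kept their calls over all 3 groups whichever library was left out, while the count over scivMSC was 3 without scivMSC1. C5ar1 and Ptafr, receptors for complement fragment C5a and for platelet-activating factor, were not called by edgeR in any of these comparisons with all 12 libraries, but DESeq2 and limma on log2(FPKM + 1) called all 8 receptors over scMSC. C5ar1 was called by edgeR over Solvent without scivMSC3 (0.0143) and over scMSC without scivMSC3 (0.0289), and Ptafr over scMSC without Solvent3 (0.0464) or scivMSC3 (0.0179) and over scivMSC without Solvent3 (0.0461). The median log2 fold change of the 8 was 2.39 over Solvent, 2.81 over scMSC and 2.33 over scivMSC. All of them also stand in the study's own list from these samples, so the counts are not independent evidence.

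Granule genes were searched in separate lists by granule class. Azurophil granule genes, which precursors in the marrow transcribe, had a summed level of 1.44, 1.01 and 1.83 FPKM in DNCB and 1.19, 0.577 and 1.4 in Solvent. Of 4 searched, 2 could be tested, and over Solvent none was called higher and 1, Mpo, was lower (log2 -2.41 ± 0.71 SE, adjusted p = 0.030), a call lost without Solvent3 (0.0988), DNCB1 (0.066), DNCB2 (0.0898) or DNCB3 (0.0978) (range over the left-out libraries 0.0227 to 0.0988) and not made by limma at either pseudocount. Over all genes tested, 7.57% were called lower over Solvent, 4.66% over scMSC and 3.13% over scivMSC. Mpo encodes myeloperoxidase and stood at 0.151, 0.113 and 0.0965 FPKM in DNCB and 0.25, 0.475 and 1.04 in Solvent. Over scMSC and over scivMSC edgeR called 0 of the 2, with 0 and 1 at an unadjusted p under 0.05, 0 and 1 by DESeq2 and 0 and 0 by limma. The median log2 value of the 2 was -0.63 over Solvent, -0.34 over scMSC and -0.59 over scivMSC.

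Specific and gelatinase granule genes, the class to which Lcn2 belongs, were high in DNCB, at a summed 53.6, 40.3 and 56.8 FPKM against 2.39, 1.26 and 2.08 in Solvent, 2.03, 2.26 and 1.25 in scMSC and 2.53, 7.13 and 1.66 in scivMSC. Mmp9, the gelatinase, was the most abundant of them in every library, at 26.8, 19.4 and 39.6 in DNCB and 1.34, 0.802 and 1.33 in Solvent (log2 4.44 ± 0.56 SE, adjusted p = 0.000768), and kept its calls over all 3 groups whichever library was left out. Of the 7 genes, 6 were called higher over Solvent, 5 over scMSC and 3 over scivMSC, and none lower, beside 6.59%, 3.84% and 2.33% of all genes tested called higher, while edgeR called Camp over no group. Ltf and Mmp8 passed the filter only through the DNCB libraries, so the counts and medians serve only as description. The count over scMSC was 3 without scMSC2, and over scivMSC 1 without DNCB1, DNCB2, DNCB3, scivMSC1 or scivMSC3. Over scivMSC the count in either direction was 5 by DESeq2 and 7 and 5 by limma at pseudocounts of 0.1 and 1. Their median log2 fold change was 4.44 over Solvent, 3.99 over scMSC and 2.86 over scivMSC with bounds (4.76, 3.99 and 2.89 as fitted); 6 of the 7 also stand in the study's own list, selected on these samples.

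A list of 18 other neutrophil genes included several shared with monocytes and macrophages, and the precursor genes Cebpe and Gfi1. Of the 18 genes, 8 were called higher over Solvent, 11 over scMSC and 6 over scivMSC. The shares of all genes tested called higher were 6.59%, 3.84% and 2.33% in that order. Counted in either direction, the calls over scivMSC were 11 by DESeq2 and 10 and 10 by limma at pseudocounts of 0.1 and 1. Of the 18, 1, Padi4, was called lower than in scMSC, a share near the 4.66% of all genes. S100a8 and S100a9, which form the calcium-binding protein calprotectin and which keratinocytes also make, were the most abundant of them in DNCB; S100a8 stood at 905, 1053 and 788 FPKM in DNCB and 44.5, 42.7 and 67.8 in Solvent (log2 3.98 ± 0.60 SE, adjusted p = 0.00142). S100a8 and S100a9 kept their calls over all 3 groups whichever library was left out, whereas the count over scMSC was 6 without DNCB1 or DNCB2, 7 without DNCB3 and 5 without scMSC2 or scMSC3 and over scivMSC 3 without DNCB1, DNCB2, DNCB3, scivMSC1 or scivMSC3. Padi4, the enzyme that citrullinates histones when neutrophils release chromatin, departed from the 10 genes, and which cells held its transcripts was not tested. It was at 3.57, 3.52 and 4.16 FPKM in DNCB, 0.308, 0.825 and 0.56 in Solvent, 12.1, 31 and 13.8 in scMSC and 10.2, 5.78 and 6.79 in scivMSC, so every MSC library lay above every DNCB library, whereas the 10 genes were low in skin given MSCs. Padi4 was higher in DNCB than in Solvent (log2 2.54 ± 0.45 SE, adjusted p = 0.00264) and lower than in scMSC (log2 -2.39 ± 0.44 SE, adjusted p = 0.00609), and the difference from scivMSC was not called (log2 -1.02 ± 0.42 SE, adjusted p = 0.174). Cebpe and Gfi1, transcription factors of marrow precursors, were not called by edgeR in any of these comparisons and stood at 0.377 ± 0.231 and 0.136 ± 0.0659 FPKM in DNCB (mean ± SD, n = 3). The median log2 fold change of the 18 was 1.74 over Solvent, 2.48 over scMSC and 2.23 over scivMSC; 14 of the 18 also stand in the study's own list from these samples.

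Of 19 relatives of the 10 genes by sequence that were tested, 4 were called higher over Solvent, 2 over scMSC and 1 over scivMSC, beside 6.59%, 3.84% and 2.33% of all genes tested. The counts called lower were 2, 1 and 1 in the same order, beside 7.57%, 4.66% and 3.13% of all genes. In either direction edgeR called 3 over scMSC and 2 over scivMSC, where the counts were 7 by DESeq2 and 5 and 6 by limma at pseudocounts of 0.1 and 1, and 6 by DESeq2 and 4 and 5 by limma at pseudocounts of 0.1 and 1, in that order. Retnla and Retn, the relatives of Retnlg, went the other way: Retnla, made by macrophages and adipocytes, was at 10.4, 11.3 and 5.43 FPKM in DNCB and 114, 182 and 507 in Solvent (log2 -5.03 ± 0.86 SE, adjusted p = 0.00229). Retn, which encodes the fat hormone resistin, was at 4.06, 7.44 and 9.33 in DNCB and 29.5, 35.9 and 20.7 in Solvent (log2 -2.24 ± 0.36 SE, adjusted p = 0.00173). Slfn2, next in family to Slfn4, rose with it, at 34.4, 32.7 and 30.1 in DNCB and 5.16, 5.74 and 11.6 in Solvent (log2 1.94 ± 0.43 SE, adjusted p = 0.00817). These 3 calls over Solvent held whichever library was left out. Of the Trem family, Trem2, a macrophage receptor, was at 3.1 ± 1.01 in DNCB and 0.839 ± 0.556 in Solvent (mean ± SD, n = 3) and was not called over Solvent by edgeR except without scivMSC3 (0.0351), and Hcar1, the lactate receptor next to Hcar2 in family, was at 1.49 ± 0.566 and 1.55 ± 0.655. Ly6d, an epidermal protein, was the most abundant relative in 11 of the 12 libraries, and Solvent3 held more Retnla. The count of relatives called higher over Solvent was 2 without Solvent1, Solvent3, DNCB1 or DNCB3 and 1 without Solvent2, over scMSC 1 without DNCB2, scMSC2 or scMSC3 and 4 without scMSC1 and over scivMSC 2 without scivMSC2. The count called lower was over scMSC 0 without DNCB1, DNCB2, DNCB3 or scMSC1 and over scivMSC 0 without DNCB1, DNCB2 or scivMSC1 and 2 without scivMSC3. Their median log2 fold change was 0.71 over Solvent, 1.21 over scMSC and 0.57 over scivMSC with bounds (0.87, 1.21 and 0.57 as fitted).

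**Figure D3:**
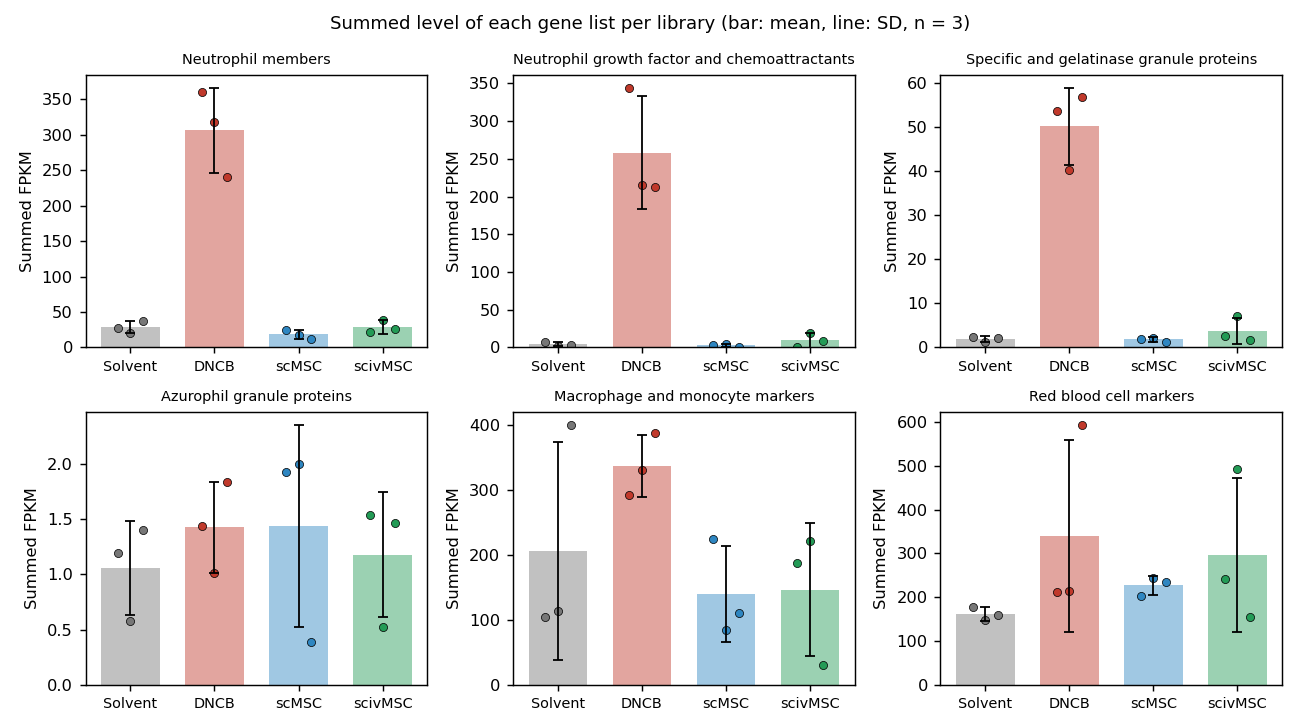
Summed FPKM per library for 6 gene lists, with a point for each of the 12 libraries, bars at the group mean and lines for the SD (n = 3). Each list other than azurophil granule genes has its highest mean in DNCB skin. DNCB libraries overlap with other groups for the macrophage and red blood cell lists, but not for the remaining neutrophil lists.

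Markers of other blood and skin cells were measured in the same libraries, since Hcar2, Trem1, Slfn4, Mcemp1 and Lcn2 are not confined to neutrophils, and their part in the result was not tested. Macrophage and monocyte markers summed to 293, 331 and 388 FPKM in DNCB, 105, 113 and 401 in Solvent, 224, 84.6 and 111 in scMSC and 187, 222 and 29.8 in scivMSC, with C1qa the most abundant in each library and none of the 9 at 0. Solvent3 lay above the lowest DNCB library, so Solvent and DNCB overlapped. By edgeR 0 of 9 were called over Solvent, scMSC or scivMSC. At an unadjusted p under 0.05 the count was 1 over Solvent, 2 over scMSC and 2 over scivMSC, DESeq2 called 0, 2 and 2, limma with a pseudocount of 0.1 called 0, 0 and 0, and with 1 called 1, 0 and 0. The edgeR count over Solvent was 1 without Solvent3, over scMSC 2 without Solvent3 or scivMSC3 and 1 without scMSC1 and over scivMSC 1 without Solvent3, and the median log2 value was 0.54 over Solvent, 1.26 over scMSC and 1.29 over scivMSC.

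Among markers of other blood cells, edgeR with all 12 libraries called the T cell marker Cd4 and the platelet markers Pf4 and Ppbp higher over scMSC. Over scivMSC it called Pf4 higher, and none was called lower in either comparison. Each of these calls was lost without DNCB2. Of all genes tested, 3.84% were called higher over scMSC and 2.33% over scivMSC. The counts and medians that follow are for DNCB against Solvent, where 6.59% of all genes tested were called higher and 7.57% lower. Eosinophil markers were low, at a summed 1.34, 1.04 and 1.85 FPKM in DNCB, 2.2, 3.15 and 6.06 in Solvent, 4.53, 2.16 and 1.29 in scMSC and 3.37, 1.52 and 1.01 in scivMSC, with Ear2 the most abundant except in DNCB2. Their defining gene Epx, eosinophil peroxidase, was not detected in any group. Of 4 tested, Ccr3 was called higher and Ear2 lower (median log2 1.23), with counts of 0 without Solvent1, Solvent2, Solvent3, DNCB2 or DNCB3 for Ccr3 and 0 without Solvent3, DNCB1 or DNCB2 for Ear2, and both counted together were 2 by DESeq2 and 2 and 1 by limma at pseudocounts of 0.1 and 1. Mast cell and basophil markers, relevant to Mcemp1, summed to 89.1, 106 and 92.2 FPKM in DNCB, 37, 21.9 and 32.6 in Solvent, 114, 51.1 and 55.2 in scMSC and 99.1, 108 and 17.8 in scivMSC, with Mcpt4 the most abundant except in scivMSC3 and the basophil gene Mcpt8 not detected in any group. Both MSC groups overlapped with DNCB for this sum, whereas they did not for Mcemp1. Of 6 tested, Tpsb2 was called higher (median log2 1.31), and the count was 0 without Solvent1, Solvent2, Solvent3, DNCB1, DNCB2 or DNCB3 and 4 without scivMSC3. Counted in either direction, it was 5 at an unadjusted p under 0.05, 3 by DESeq2 and 2 and 1 by limma at pseudocounts of 0.1 and 1.

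T cell markers summed to 2.94, 3.12 and 3.46 FPKM in DNCB, 2.86, 1.69 and 3.91 in Solvent, 2.34, 1.23 and 0.605 in scMSC and 2.35, 1.61 and 2.46 in scivMSC, with Cd4 the most abundant in each DNCB library and Cd8b1 not detected in Solvent. Of 5 tested, Cd4 was called higher (median log2 -0.33), and the count was 0 without Solvent1, Solvent2, DNCB2, DNCB3 or scMSC2, with 1 called lower without Solvent2 or scMSC3; the count in either direction was 2 by DESeq2 and 1 and 0 by limma at pseudocounts of 0.1 and 1. Platelet markers summed to 61, 59.1 and 49.5 FPKM in DNCB, 11.9, 11.1 and 25.1 in Solvent, 16.9, 10.2 and 11.1 in scMSC and 13.1, 21 and 5.9 in scivMSC, with Pf4, which macrophages also make, the most abundant in each library, and with Gp9 not detected in Solvent, DNCB or scMSC, Gp1bb not in Solvent and Treml1 not in scMSC or scivMSC. Of 4 tested, 2 (Pf4 and the chemokine Ppbp) were called higher, and the count was 0 without Solvent1, DNCB1, DNCB2, DNCB3 or scMSC2 and 1 without Solvent2, Solvent3, scMSC1, scMSC3 or scivMSC2, with a median log2 of 1.21 with bounds (1.84 as fitted). Red blood cell markers summed to 212, 214 and 594 FPKM in DNCB, 178, 148 and 159 in Solvent, 203, 245 and 234 in scMSC and 241, 493 and 156 in scivMSC, with Hbb-bs the most abundant except in Solvent1. They were highest in DNCB3, where 7 of the 10 neutrophil genes had their lowest DNCB value, and next in scivMSC2, where 4 of the 10 had their highest value outside DNCB. By edgeR 0 of 5 were called (median log2 0.80), or 1 without scivMSC2. At an unadjusted p under 0.05 the count was 2 over Solvent, DESeq2 called 1, limma with a pseudocount of 0.1 called 1, and with 1 called 1.

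Keratinocyte keratins, measured beside Lcn2 and Hcar2 because the epidermis can make both, summed to 23401, 26922 and 19743 FPKM in DNCB, 7989, 5689.8 and 4567 in scMSC and 10306, 17876 and 7918 in scivMSC. Of 7, 5 were called higher over Solvent, 5 over scMSC and 2 over scivMSC, beside 6.59%, 3.84% and 2.33% of all genes tested; over scivMSC the count was 0 without DNCB1, DNCB2, scivMSC1 or scivMSC3 and 5 without scivMSC2, and the median log2 value was 2.65 over Solvent, 2.81 over scMSC and 1.71 over scivMSC. Other tools called more keratins over scivMSC, counted in either direction, 4 by DESeq2 and 5 and 5 by limma at pseudocounts of 0.1 and 1. In scivMSC2 the wound keratin Krt6b was at 1021 FPKM, against 72.7 and 117 in its replicates, and Retnlg, Trem1, Trem3 and Mcemp1 had their highest values outside DNCB in that library. The study's own list from these samples also holds 1 of the 9 ligands, 3 of the 21 relatives, 3 of the 9 macrophage markers and 3 of the 7 keratins. The eosinophil marker Prg2 stands in the study's opposite list, of genes lower in DNCB than in the MSC groups.

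The genes whose levels across the 12 libraries most resembled the mean of the 10 were ranked among 14378 others with a mean of at least 1 FPKM, by Pearson's r of log2(FPKM + 0.1), as a description. They were Cd14 (r = 0.995), Ccr1 (0.995), Srgn (0.991), Slc15a3 (0.99), Plaur (0.984), Spp1 (0.982), Ifitm1 (0.981), Ccl4 (0.981), Samsn1 (0.979) and F10 (0.979), each over 12 libraries. Cd14, the co-receptor for bacterial lipopolysaccharide, was at 216, 217 and 124 FPKM in DNCB, 6.63, 2.56 and 8.05 in Solvent, 6.46, 5.83 and 3.61 in scMSC and 4.23, 15 and 4.48 in scivMSC. Like Retnlg and Trem1, it was lowest within DNCB in DNCB3 and highest outside DNCB in scivMSC2. Ccr1, a chemokine receptor of myeloid cells, was at 23.1, 19.7 and 20.6 in DNCB and 1.13, 0.43 and 1.43 in Solvent, with DNCB above all the others. The DNCB libraries stand apart from the rest for the 10 genes, so these values of r carry that gap as well as the spread within groups.

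Apart from Trem1 and Trem3, the 10 genes lie on different chromosomes. In GENCODE M21, which gives the same positions except that Lcn2 runs on to base 32388252, no member shares an exon with another gene, although Trem1 overlaps AC241601.2 on the other strand outside its exons. Stretches of 50 bases shared with the transcripts of other genes made up 11.3% of those of Slfn4 (shared with Slfn3, Slfn2 and Gm11427 among others), 10.75% of those of Csf3r, 5.51% of those of Cd177 and 0.448% of those of Ly6g, and none were shared by the 6 other genes. Fragments of such stretches can be assigned to the wrong gene, and their share in the counts was not tested.

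Promoter sequences were available from RefSeq (GRCm38.p6) for 8 of the 10 genes, as 300 bases from 250 before to 50 after a start site that for the 4 genes printed below is not the first base of the gene given above, with 9 entries because Ly6g has 2. Trem3 and Hcar2 have no entry. On both strands they were searched for GAGGAA, the core letters bound by PU.1, for TTNNGCAA, a form bound by C/EBP factors, and for the NF-kB motif, because these factors are known to act on myeloid and inflammatory genes. GAGGAA was found in 5 of 8 genes (Cd177, Csf3r, Lcn2, Ly6g and Trem1) and in 28.3% of all 32851 entries. TTNNGCAA was found in 3 of 8 (Lcn2, Ly6g and Retnlg) and in 10.8% of all, and the NF-kB motif in 2 of 8 (Cd177 and Csf3r) and in 8.46%. Mcemp1 and Slfn4 held none of the 3, no matches overlapped, and a match is a description of letters only. The promoters of Csf3r (chr4:126024409-126024708, plus strand), Ly6g (chr15:75155011-75155310, plus strand, the upstream entry), Lcn2 (chr2:32387690-32387989, minus strand) and Retnlg (chr16:48872358-48872657, plus strand) are shown 5′ to 3′ on the gene's strand as examples of members that rose together in DNCB skin, with the receptor, the surface marker and both secreted products among them. Capitals mark the matches: in Csf3r the NF-kB motif at bases 122 to 131 and PU.1 at 165 to 170, in Ly6g C/EBP at 19 to 26 and PU.1 at 115 to 120 and 220 to 225, in Lcn2 C/EBP at 35 to 42 and PU.1 at 231 to 236, and in Retnlg C/EBP at 5 to 12.
Csf3r: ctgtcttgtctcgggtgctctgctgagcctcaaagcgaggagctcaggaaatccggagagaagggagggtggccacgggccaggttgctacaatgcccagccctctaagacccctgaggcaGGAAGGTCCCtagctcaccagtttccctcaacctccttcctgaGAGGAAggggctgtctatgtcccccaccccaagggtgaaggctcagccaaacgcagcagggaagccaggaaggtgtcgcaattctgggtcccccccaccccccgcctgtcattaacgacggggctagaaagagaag
Ly6g: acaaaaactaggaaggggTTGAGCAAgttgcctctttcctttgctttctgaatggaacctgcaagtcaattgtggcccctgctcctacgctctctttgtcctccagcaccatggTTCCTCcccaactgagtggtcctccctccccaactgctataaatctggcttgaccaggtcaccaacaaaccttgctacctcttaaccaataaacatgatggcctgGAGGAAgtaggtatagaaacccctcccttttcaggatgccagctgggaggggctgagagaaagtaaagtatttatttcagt
Lcn2: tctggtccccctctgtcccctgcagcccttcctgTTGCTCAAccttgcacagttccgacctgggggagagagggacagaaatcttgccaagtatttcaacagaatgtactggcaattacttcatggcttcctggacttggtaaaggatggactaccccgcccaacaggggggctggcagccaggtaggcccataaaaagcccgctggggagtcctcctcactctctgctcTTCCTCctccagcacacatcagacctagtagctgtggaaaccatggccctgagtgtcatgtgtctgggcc
Retnlg: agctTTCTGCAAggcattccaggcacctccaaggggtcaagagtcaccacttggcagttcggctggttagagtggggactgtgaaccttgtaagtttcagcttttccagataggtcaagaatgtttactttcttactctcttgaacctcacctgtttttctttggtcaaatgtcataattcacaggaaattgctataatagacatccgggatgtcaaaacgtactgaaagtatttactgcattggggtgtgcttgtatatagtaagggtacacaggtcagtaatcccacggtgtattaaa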

How the data were processed

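The 12 skin libraries, 3 in each of 4 groups, were compared with each library taken as a separate mouse. The study kept 6 mice in a group, and the labels do not say which were sequenced or whether any were pooled, so whether n and SE refer to single mice is not known. The authors deposited FPKM per gene and library, and the submitters' notes list Bowtie 0.12.2, HISAT2 2.0 and StringTie 1.3.0 without saying which made the values. The authors also deposited estimated counts per gene and library, not normalized between libraries, in which about 4 stood for 1 fragment. This scale was read from an excess of multiples of 4 among values up to 18, at 38.95% to 41.25% by library. The submitters' notes do not state it, so numbers of fragments are approximate. The notes name the build mm8, but the deposited coordinates are those of GRCm38.

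Estimated counts were fitted with edgeR 4.0.16 (quasi-likelihood F test, TMM factors 0.887 to 1.06, R 4.3.3) for the 21890 genes whose mean over the 12 libraries reached 0.1 FPKM, with 4 groups in 1 model and Benjamini-Hochberg adjustment over all of them. Tests are two-sided, n is 3 libraries a group, and SE is the log2 fold change divided by the square root of F. Replicates correlated at r = 0.944 to 0.967, and edgeR's shared estimate of biological variation was 0.4197 as a coefficient of variation. Alternatives were other normalizations, DESeq2 1.42.0, limma 3.58.1 on log2(FPKM + 0.1) or log2(FPKM + 1), other filters, counts divided by 4, each pair of groups fitted alone, a replicate block and each library left out. The members and the 13 other gene lists (ligands, receptors, azurophil and specific granule genes, other neutrophil genes, relatives of the 10 genes, and markers of macrophages, eosinophils, mast cells, T cells, red blood cells, platelets and keratinocytes) were chosen with earlier results of these data known. Leaving out libraries for those lists was chosen after seeing the data. Named genes are the 10 members, genes of the lists, and the 10 genes most correlated with the members.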

Additional observations from a re-analysis of the deposited data

How the results depend on the processing

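None of the recomputed results on the 10 genes reversed in direction; these were each gene in DNCB against every other group and, among those groups, the comparisons for which values of Lcn2, Hcar2, Retnlg and Cd177 are given. The remaining comparisons of single genes among those groups were recomputed only as counts of genes called. With 1 library left out, the genes' calls kept their side of the threshold in 383 of 456 results, were lost in 68 and were gained in 5. Under the other settings 350 of 373 kept it, 16 were lost and 7 were gained. With each library left out in turn, the members called ranged from 6 to 10 for DNCB against Solvent, from 6 to 10 against scMSC and from 4 to 10 against scivMSC. The same range was 1 to 2 for scMSC against Solvent, 0 to 1 for scivMSC against Solvent, and 0 throughout for scMSC against scivMSC. The count of 2 includes Cd177 and serves only as description. With a replicate block, 9 members were called for DNCB against scMSC, 5 for DNCB against scivMSC and 0 for scivMSC against Solvent. The replicate numbers did not match libraries across groups (2 of 12 libraries were best matched to their own number). For scMSC against Solvent, 2 were called by DESeq2, Cd177 among them, and 2 without a fold threshold. The count was 0 by limma on log2(FPKM + 1) and 0 with the 6 libraries fitted alone. For scivMSC against Solvent, 0 were called by limma on log2(FPKM + 1) and 0 with the 6 libraries fitted alone. The cause of these differences was not tested. The same 4 of 40 pairs of gene and group were not detected with a floor of 4 estimated counts as with 12. With 3 libraries a group and several members near a few fragments outside DNCB, the size of those fold changes is poorly bounded.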
